A study of Homo sapiens and Mus musculus with 4 samples.

Results

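The 7 genes KIT, CD34, TEK, FLT3, PROCR, SELP and CXCR4 encode surface markers or receptors of blood stem cells and were examined for nearby binding of the transcription factor ATF4. A peak was taken as belonging to a gene where at least 1 of its bases fell within the gene span or 50 kb on either side. This rule selected 8 peaks of 83961 in all. One of these came from the 873 peaks of the KG1a list and lay near KIT, and 7 came from the 83088 peaks of the mouse bone marrow list and lay near Kit. All 7 genes were placed on the human genome. On the mouse genome Kit alone was placed, at about 75.57 to 75.66 Mb of chromosome 5 (GRCm38, known to 10 kb), and the mouse orthologues of the other 6 were not analysed here.

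ATF4 occupancy was measured by chromatin immunoprecipitation followed by sequencing (ChIP-seq). The 4 libraries were a KG1a ATF4 ChIP with its KG1a input, and an ATF4 ChIP of bone marrow cells from C57BL/6 mice with its input. KG1a is a human acute myeloid leukaemia line, here grown with 20% serum, and each group held 1 library, so no value below has a replicate check and no test between libraries was possible. The labels give the mouse cells no age, sex, treatment or sorting step, and bone marrow mixes many cell types of which blood stem cells are a small part. The lists carry positions only. Peak height, read depth, input signal and gene expression were not part of them, so a gene without a peak is one without a listed peak at an unknown depth, and the identity of the cells was not checked against markers.

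KIT, FLT3 and TEK are receptor tyrosine kinases that carry growth and survival signals into stem and progenitor cells, and their ligands are stem cell factor, FLT3 ligand and the angiopoietins. CXCR4 is the receptor for the chemokine CXCL12, which holds stem cells in their marrow niche. CD34 is a sialomucin used to isolate human stem and progenitor cells, PROCR is the endothelial protein C receptor and marks mouse and human stem cells, and SELP is P-selectin, an adhesion molecule of platelets and endothelium. ATF4 is made when translation is slowed by stress. It pairs with C/EBP proteins on composite sites and with other basic leucine zipper proteins on cAMP response elements.

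The sequences that follow are 3 of the 10 promoters of these genes, and no KG1a peak was listed on any of them. They are RefSeq promoters of GRCh38.p14, each from 250 bases before the transcription start to 50 after it, read 5′ to 3′ on the strand of the gene. KIT is shown because it is the gene with a peak nearby (chr4:54657707-54658006, plus strand), FLT3 because it holds the core TGACG of the cAMP response element (chr13:28100527-28100826, minus strand), and SELP because it is the poorest of these promoters in CpG dinucleotides (chr1:169630075-169630374, minus strand). Capitals mark TGACG and the GC box GGGCGG on either strand.
KIT: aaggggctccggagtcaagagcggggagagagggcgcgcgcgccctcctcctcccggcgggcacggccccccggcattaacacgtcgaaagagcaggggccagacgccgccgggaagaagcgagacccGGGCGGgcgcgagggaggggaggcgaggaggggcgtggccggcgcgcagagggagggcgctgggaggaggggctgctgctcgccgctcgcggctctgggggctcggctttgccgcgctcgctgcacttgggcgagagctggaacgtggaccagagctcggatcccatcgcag
FLT3: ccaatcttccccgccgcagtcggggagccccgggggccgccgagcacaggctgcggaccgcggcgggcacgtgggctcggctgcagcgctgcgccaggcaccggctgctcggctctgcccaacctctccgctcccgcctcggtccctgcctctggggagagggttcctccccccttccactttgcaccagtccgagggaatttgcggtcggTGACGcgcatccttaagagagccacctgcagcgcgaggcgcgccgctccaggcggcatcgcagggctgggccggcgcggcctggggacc
SELP: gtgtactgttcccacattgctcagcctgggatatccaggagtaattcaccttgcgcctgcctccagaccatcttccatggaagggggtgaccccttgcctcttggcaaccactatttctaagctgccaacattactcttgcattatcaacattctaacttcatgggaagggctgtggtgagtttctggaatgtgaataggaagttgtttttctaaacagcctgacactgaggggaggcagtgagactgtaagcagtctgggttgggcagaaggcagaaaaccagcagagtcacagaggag

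In the leukaemia cells, the peaks called in the KG1a ChIP library over its input show where ATF4 lay around these genes. KIT had a listed ATF4 peak within 50 kb, and CD34, TEK, FLT3, PROCR, SELP and CXCR4 had none. Thus 1 of 7 genes had a peak, where 6.25% of all 20037 protein-coding genes did by the same rule. The count rests on 1 gene, and nothing is read from it about the group. No peak lay inside any of the 7 gene spans, which ranged from 3.8 kb for CXCR4 to 121 kb for TEK, while 2.26% of protein-coding genes held one inside the span.

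The KIT peak spanned 317 bases at chromosome 4, 54619254 to 54619570 (GRCh38). It lay 38.4 kb upstream of the transcription start of KIT, which begins at 54657957 and runs to 54740715 on the plus strand. The peak overlapped no annotated gene. It sat in the 360 kb between PDGFRA, which encodes a related receptor kinase, and KIT, 321 kb from the end of PDGFRA, so KIT was its nearest protein-coding gene. The peak was isolated. The next listed peak towards lower positions was 5.81 Mb away and the next towards higher positions 1.38 Mb away, and chromosome 4 held 54 peaks in all. It was a narrow peak, since 13.7% of the KG1a list was narrower and the median width was 341 bases. Its place in the deposited order was 416 of 873, but the meaning of that order is not stated.

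The call for KIT depends on the distance allowed and on the part of the list used. With 10 kb on either side 0 of the 7 genes had a peak, against 3.15% of protein-coding genes. With 100 kb it was still 1, against 9.93%, and with 500 kb 4 of the 7, KIT, FLT3, PROCR and CXCR4, had one, against 32.2% of protein-coding genes. The KIT peak was neither among the widest 25% of the list nor among its first 25%.

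The other receptor kinases lay farther from ATF4 peaks. The nearest KG1a peak to FLT3 was 247 kb upstream, at chromosome 13, 28347853 to 28348188, and lay inside FLT1, which encodes a receptor for vascular endothelial growth factor. For TEK the nearest peak was 1.01 Mb upstream, at chromosome 9, 26098737 to 26099317, inside the long non-coding RNA gene LINC03106. No peak lay within 1 Mb of TEK, whereas FLT3 had 1 and KIT had 1 at that distance. TEK missed that limit narrowly. The median distance of protein-coding genes was 961 kb, and 51.6% of them had a peak nearer than TEK did.

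Of the remaining genes, PROCR came closest to the limit. Its nearest peak lay 109 kb downstream, at chromosome 20, 35325513 to 35325837, inside UQCC1, an assembly factor gene of mitochondrial complex III, and a second peak was also within 500 kb of PROCR. PROCR was thus the nearest gene outside the 50 kb limit and KIT the nearest inside it. CXCR4 had its nearest peak 322 kb downstream, at chromosome 2, 135792479 to 135792794, inside the lactase gene LCT. For CD34 the nearest peak was 1.02 Mb upstream, at chromosome 1, 208926620 to 208926971, in the non-coding gene LOC107985255. For SELP it was 1.31 Mb upstream, at chromosome 1, 170944629 to 170945014, inside MROH9.

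In order of distance the genes ran KIT, PROCR, FLT3, CXCR4, TEK, CD34 and SELP. TEK and CD34 were at nearly the same distance, 1.01 and 1.02 Mb. The median distance was 322 kb for the 7 genes and 961 kb for the 19974 protein-coding genes on chromosomes with a KG1a peak. Of these 5.32% had a peak nearer than KIT did, 10.6% nearer than PROCR, 19.1% nearer than FLT3 and 23.4% nearer than CXCR4. TEK, CD34 and SELP lay on the far side of the median, with 51.6%, 51.8% and 59.8% of genes nearer. These 7 distances lay on 6 chromosomes that held between 24 and 79 peaks each, and SELP and CD34 share chromosome 1.

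**Figure D1:**
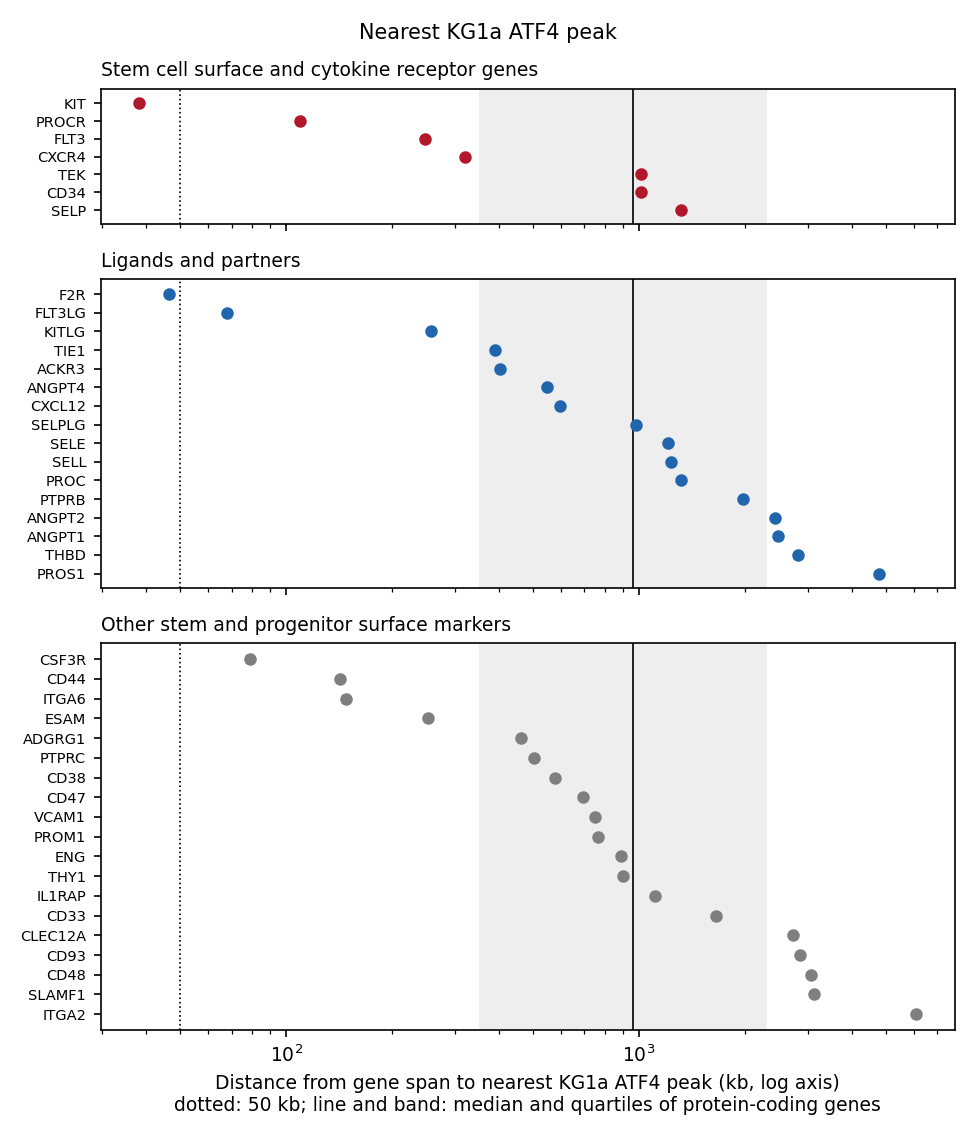
Each point gives the distance in kb, on a log axis, from a gene span to the nearest KG1a ATF4 peak, for the 7 stem cell surface and cytokine receptor genes, for 16 ligands and partners and for 19 other surface markers. The dotted line is 50 kb, and the line and band are the median (961 kb) and quartiles (355 to 2290 kb) of the protein-coding genes on chromosomes with a KG1a peak; KIT and F2R are the 2 points left of the dotted line.

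Of 16 genes of ligands and partners of these receptors, 1 had a KG1a peak within 50 kb, which is 6.25%, the same share as in all protein-coding genes. It was F2R, the thrombin receptor gene PAR1, through which PROCR and activated protein C signal. Its peak lay at chromosome 5, 76782370 to 76782728, 46.6 kb beyond the high-coordinate end of F2R and 36.3 kb from F2RL1, a nearer gene of the same receptor family. The gene of FLT3 ligand, FLT3LG, was 68.1 kb from a peak that lay 0.814 kb from NOSIP. KITLG, the gene of stem cell factor, was 257 kb from its nearest peak and CXCL12 was 596 kb away. The angiopoietin genes ANGPT4, ANGPT2 and ANGPT1 were 0.547, 2.42 and 2.47 Mb from a peak, and SELPLG, the gene of the P-selectin ligand, 0.979 Mb. No receptor gene and its own ligand gene both had a listed peak within 50 kb. With a background of 6.25% for a single gene, so few pairs cannot show an absence, and nothing is read from it.

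Other surface markers of stem and progenitor cells had none. Of 19 such genes 0 had a peak within 50 kb. The nearest was CSF3R, the receptor gene of granulocyte colony-stimulating factor, at 79.1 kb, and that peak lay 0.491 kb from STK40. CD44 and ITGA6, which encode adhesion receptors, followed at 142 and 147 kb. With a background of 6.25%, a list of 19 genes is too short to show a deficit.

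The promoters of the 7 genes differed widely in composition, a feature that the choice of genes and peaks did not use. The table gave 10 promoters, because TEK has 2 and CXCR4 has 3 annotated starts. KIT had 38 CpG dinucleotides in its 300 bases and FLT3 had 34, more than 90.1% and 84.4% of the 35116 RefSeq promoters, whose median was 14. SELP had 1, and both TEK promoters were poor, with 5 and 3. CD34 had 19 and PROCR 9, while the CXCR4 promoters had 27, 14 and 9. The gene with a peak nearby thus had the promoter richest in CpG, but FLT3, nearly as rich, had no peak within 50 kb.

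**Figure D2:**
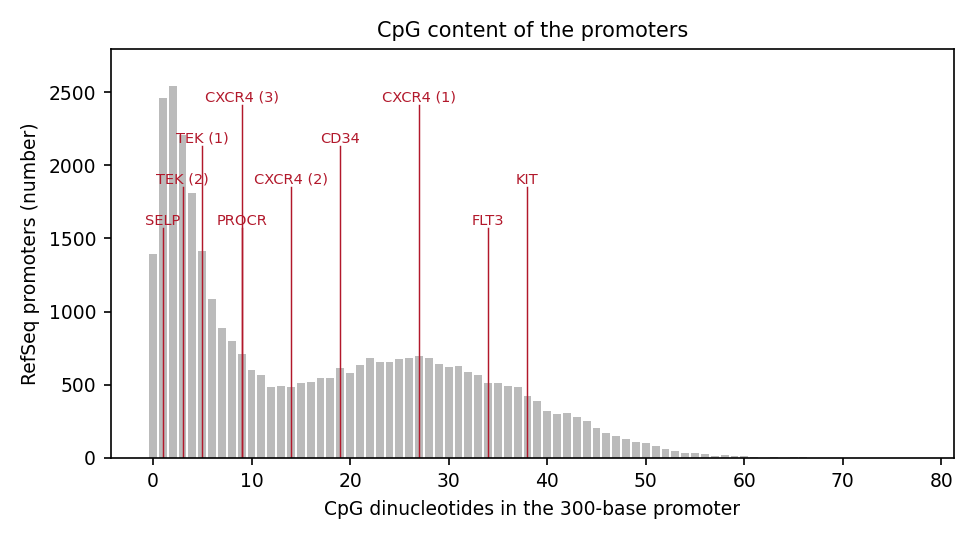
Bars give the number of RefSeq promoters (300 bases each) at each count of CpG dinucleotides, and red lines mark the promoters of the 7 genes, with the annotated start in brackets for TEK and CXCR4. The lines run from 1 in SELP to 38 in KIT.

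None of the 10 promoters held a composite ATF4 site or a full cAMP response element in these letters. The site TGATGNAA was in 0 of the 10 promoters and in 3.62% of all promoters, its strict form TGATGCAA in 0 and in 0.866%, and the palindrome TGACGTCA in 0 and in 1.85%. Counted by gene, the shares were 0 of 7 and 4.46%, 1.08% and 2.25% of genes. All were searched on both strands. The shorter TGACG, which is part of TGACGTCA, was found for 2 genes, FLT3 and CXCR4, and for 28.4% of all genes with a promoter in the table. In FLT3 it lay 39 to 35 bases before the start, as the capitals above show, and in CXCR4 31 to 35 bases after the first start, a stretch that the window of its second start also covers. The GC box GGGCGG was found for 4 genes, KIT, CD34, PROCR and CXCR4, and for 48.3% of all genes with a promoter in the table. In KIT it lay 122 to 117 bases before the start.

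In mouse bone marrow, the ChIP library was likewise set against its own input. Kit had 7 ATF4 peaks in the 190 kb from 75.52 to 75.71 Mb of chromosome 5. By the rounded ends of the gene, 6 of these lay below its low-coordinate end, 1 lay inside it and 0 lay above it. The strand of mouse Kit was not in the tables used, so sides are given by position.

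Below Kit the peaks fell into a pair, a group of 3 and a single peak. The pair, at 75522396 to 75522687 and 75524050 to 75525111, was centred 47.5 and 45.4 kb below the gene. Its second peak, 1062 bases wide, was the widest of the 7, and 77.5% of the mouse list was narrower. Its place in the deposited list was 803 of 83088, an order with no stated meaning. The group of 3 covered 2.71 kb and ended 14.6 kb below the gene. Its peaks ran from 75552684 to 75553527, from 75553994 to 75554713 and from 75555130 to 75555398, were 844, 720 and 269 bases wide, and were 466 and 416 bases apart. The single peak, 362 bases at 75568258 to 75568619, ended 1.38 kb below the rounded start of the gene. That distance is smaller than the 10 kb to which the gene position is known, so whether this peak overlaps the gene cannot be told.

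Inside Kit a single peak of 406 bases lay at 75623668 to 75624073, about 53.7 kb from the low end and 35.9 kb from the high end. It stood alone. The stretch without a listed peak was 55.0 kb on its low side and 105 kb on its high side, and 17.2% and 6.59% of the gaps between neighbouring autosomal peaks were longer than these. The median gap was 7.33 kb.

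The peaks around Kit were near the median in number. Among 12610 consecutive windows of 190 kb on the mouse autosomes, 95.2% held at least 1 peak and 41.8% held at least 7. On chromosome 5 alone these shares were 95.8% and 49.4% of 782 windows. The Kit window had 7 peaks, the median autosomal window 6 and the fullest 36. Peaks covered 3.96 kb, or 2.08%, of the Kit window, and a median of 4.37 kb of the autosomal windows. The widths at Kit ranged from 269 to 1062 bases with a median of 406, against 544 for the whole list. Of the 7 peaks 3 were wider than that list median, and 65.6% of autosomal windows held a wider peak than any at Kit. By number 33.9% of autosomal windows exceeded the Kit window, but by bases covered 54.0% did.

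**Figure D3:**
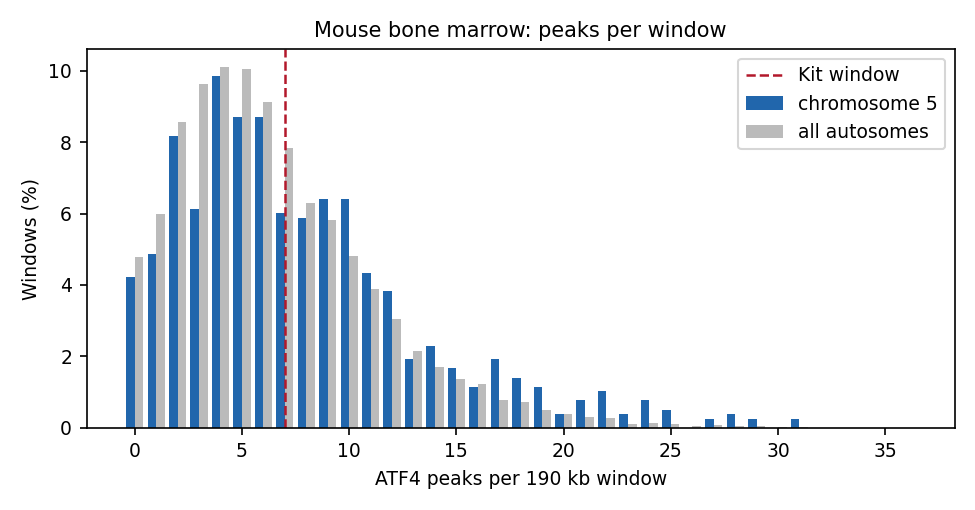
Bars give the percentage of consecutive 190 kb windows that held each number of mouse bone marrow ATF4 peaks, in blue for chromosome 5 and in grey for all autosomes. The dashed line marks the 7 peaks of the Kit window, close to the median of 6.

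Wider peaks lay just outside the limit. The first peak below the window, at 75486332 to 75491500, was 5169 bases wide, wider than 98.7% of the list, and ended 28.5 kb from the window. The first above it, at 75729044 to 75731081, was 2038 bases wide and began 19.0 kb from it. The outermost peak counted for Kit began 2.4 kb inside the low limit.

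Set side by side, KIT in KG1a cells and Kit in mouse bone marrow both had peaks on the low-coordinate side of the gene and within 50 kb of it. With no flank the numbers were 0 in KG1a and 1 in mouse, with 10 kb 0 and 2, with 50 kb 1 and 7, with 100 kb 1 and 9, and with 500 kb 1 and 46. The KG1a peak was 38.4 kb from the gene, whereas the mouse peaks below the gene ended about 44.9 kb (the pair), 14.6 kb (the group of 3) and 1.38 kb (the single peak) from it. The end of mouse Kit is known only to 10 kb, so these distances cannot be matched one to another. Whether any of them lies in matching sequence was not tested. As 95.2% of mouse windows of this length hold a peak, the presence of peaks near Kit does not set it apart from the rest of the mouse genome. The lists differ in species, cell source and number of peaks, and no peak is called gained or lost between them.

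**Figure D4:**
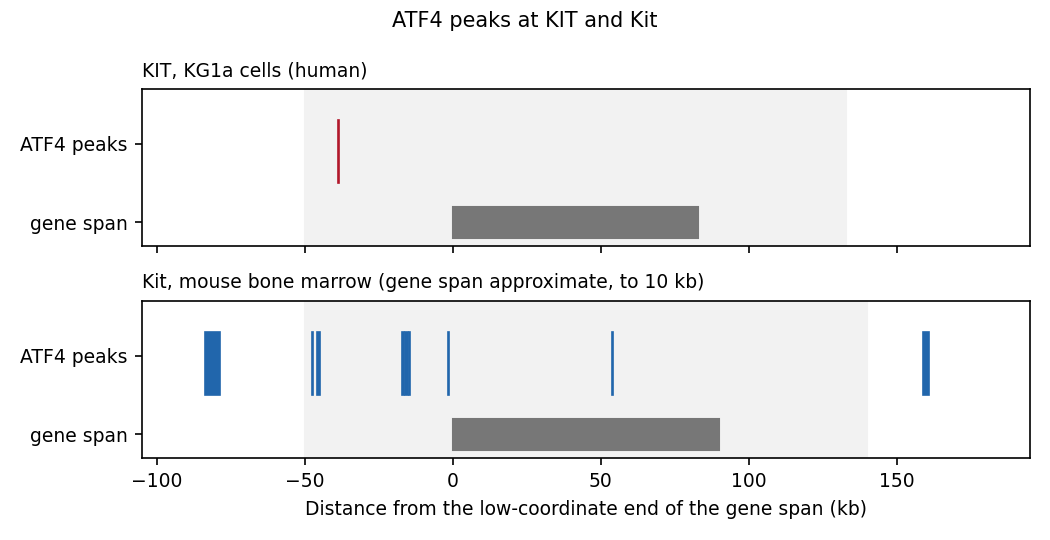
ATF4 peaks (coloured, to scale) and gene spans (grey) are drawn by distance in kb from the low-coordinate end of KIT in KG1a cells (top) and of Kit in mouse bone marrow (bottom), with the 50 kb flanks shaded. Within the shaded flanks the KG1a list has 1 peak, 38.4 kb before KIT. The mouse list has 6 there below the rounded low end of Kit and 1 inside the gene. The group of 3 appears as 1 block. Peaks are drawn to 100 kb on either side, where the mouse list has 9.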

How the data were processed

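ATF4 ChIP-seq was done on KG1a cells and mouse bone marrow cells, with 1 ChIP and 1 input library each. The builds were GRCh38 and GRCm38 and the tools included Bowtie2, MACS2, deepTools and CASAVA 1.4, per the submitters' processing notes. No label gives the cutoff of the peak caller. The authors deposited 1 list per cell source, with 3 columns for the chromosome, start and end of each peak and no other value or score. Depth is unknown. A further gene of the surface marker list was left out of its counts and is not reported here. Starts were read as counted from 0 and are printed from 1.

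Genes and promoters came from RefSeq tables of GRCh38.p14 (all 7 genes and the 35 genes of the pathway lists matched). Backgrounds of distance and peak share were restricted to protein-coding genes. Promoter backgrounds were not restricted by gene type and used all 35116 promoters, of 27305 genes. Promoter windows gave strand. Mouse Kit was placed by an approximate position supplied with the gene list. An overlap of 1 base counted. Autosomes were tiled from the first to the last peak in 190 kb windows. No significance test was run. Python 3.11.15, pandas 2.3.3 and numpy 2.4.6 were used, and the code was tested on simulated data. The genes named are the 7, the pathway genes with a peak within 50 kb and their neighbours. A few near misses and some ligand genes far from any peak were also named, chosen after their values were seen. Genes and lists were chosen with earlier results of these data known. Alternatives were other flanks, overlap rules, parts of the lists and motifs.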

Additional observations from a re-analysis of the deposited data

How the results depend on the processing

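Counts rest mainly on the distance allowed. The number of the 7 genes with a KG1a peak, 1 as reported, was 0 with no flank, with 10 kb, in the widest 25% and in the first 25% of the list, and 4 with 500 kb (KIT, FLT3, PROCR and CXCR4). It was unchanged with 100 kb or by peak centre. The number of pathway genes with a KG1a peak, 1, was 0 with no flank, with 10 kb, in the widest 25% and in the first 25%, and 3 with 100 kb (F2R, FLT3LG and CSF3R). The 7 mouse peaks at Kit became 1 with no flank, 2 with 10 kb, 46 with 500 kb, 1 in the widest 25% and 2 in the first 25%. They stayed between 5 and 9 in the other 8 alternatives, which included moving the window by 10 kb. The share of autosomal windows above the Kit window, 33.9% by number, was 54% by bases covered. The promoter motif count of 0 was 2 for TGACG and 4 for GGGCGG. KIT was the only gene placed on both genomes, so the number of genes with peaks in both lists could only be 0 or 1. That number was 1 as reported, with 100 kb and with 500 kb, and 0 with no flank and with 10 kb. It says nothing about the other genes, whose mouse orthologues were not analysed. The flanks in both lists, the 500 kb flank in mouse, TGACG and GGGCGG were added after the data were seen. The alternatives use other flanks, overlap rules, parts of the lists, measures or motifs, and why each value moved was not tested. No paired analysis was possible because each group held 1 library and no result came from a test. Depth is unknown, so it cannot be said which genes would gain a peak with more reads.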
